A study of Mus musculus with 4 samples.

Results

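The ERα d/d ovarian tumors were compared between 10 and 5 months of age on the 2 tumor arrays of a series of 4 Affymetrix mouse arrays, each hybridised with RNA pooled from 3 mice. The members were the 11846 genes, of 18193 named by a probe set for 1 gene, that had a probe set above the median signal of its array on at least 1 of both tumor arrays. The ERα d/d mice were females of the C57BL/6 strain that carried a floxed Esr1 gene on both alleles (Esr1tm1.2Mma) and Cre recombinase knocked into 1 allele of the progesterone receptor gene (Pgrtm2(cre)Lyd), so that Esr1 was to be deleted in cells that use Pgr (by the study's methods, including corpora lutea, oviduct, uterus, pituitary and the mammary gland) and 1 Pgr allele was lost in every tumor mouse. The ERα f/f females, of the same strain and with the same floxed Esr1 alleles but no Cre, gave 1 ovary array at each age, and the difference between these served here as the spread between single arrays of 1 genotype. The tumor and ovary pools were whole tissue, so that fewer cells of a type and less RNA per cell cannot be told apart.

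Ages were taken from the sample titles, with which the source names agree. A separate age field of the labels gave 10 months for both tumor pools and 5 months for both ovary pools, so the direction of every difference rests on the titles. With 1 array a side there was no replicate of either age, no test was made, and every value below describes 3 pooled mice against 3 other pooled mice. Differences are 10 minus 5 months in log2 of the deposited signal, and a gene called higher or lower differed at least 2-fold.

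The ovary is covered by a surface epithelium that is continuous with the mesothelium lining the body cavity, and it holds follicles in which granulosa cells surround each oocyte. Oocytes are not replaced, so a mouse ovary loses them with age, and an ovary without growing follicles also lacks most of the granulosa cells that answer to follicle-stimulating hormone. Tumors recruit macrophages, which take up lipid and cell debris, and a tumor as a whole carries the RNA of all these cells together.

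The targeted gene, Esr1, which encodes ERα, had a signal of 431 in the 5-month and 697 in the 10-month tumor pool, against 2232 and 2492 in the ovary pools of 5 and 10 months. Both tumor values lay below both ovary values, and the tumor pools differed by 0.69 on the log2 scale. The position of the probes relative to the floxed part was not given, which leaves the deletion itself unchecked on these arrays. By immunostaining of ERα d/d mice, the study reported ERα protein lost from the anterior pituitary. It reported the protein kept in the surface epithelium, theca cells and tumor cells of the ovary. Pgr, an estrogen-induced gene and the one that drives Cre, had signals of 58.0 and 21.8 in the 5- and 10-month tumors and 699 and 937 in the ovaries, and only the 5-month tumor value lay above its array's median.

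Over the genes kept, chosen by signal on the tumor arrays alone, the tumor pools differed more between ages than the ovary pools did. Of the genes kept, 576 (4.86%) were higher and 417 (3.52%) were lower in the 10-month tumors, against 63 (0.532%) and 118 (0.996%) for the same genes in the ovaries. The tumor shares are those to set beside the counts of each list below. The standard deviation of the log2 differences over genes was 0.63 in the tumors and 0.32 in the ovaries, with medians of 0.01 and 0.00. Choosing genes this way lets in those bright on 1 tumor array only, which can widen the tumor spread alone. With no filter the standard deviations were 1.09 and 0.98. Over genes above the median on both tumor arrays they were 0.47 and 0.27. A difference past 2.26-fold in either direction was seen in 1% of the genes in the ovaries by construction and in 6.22% of them (737 genes) in the tumors, of which 410 were higher and 327 were lower. Among the brightest 3949 genes, where single arrays vary least, the standard deviations were 0.40 and 0.17, and the tumors had 84 higher and 54 lower genes there against 3 and 4 for the ovaries. Of the 993 genes past 2-fold in the tumors, 908 were within 2-fold in the ovaries, 21 were higher and 25 lower in both tissues, and 39 went opposite ways.

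**Figure D1:**
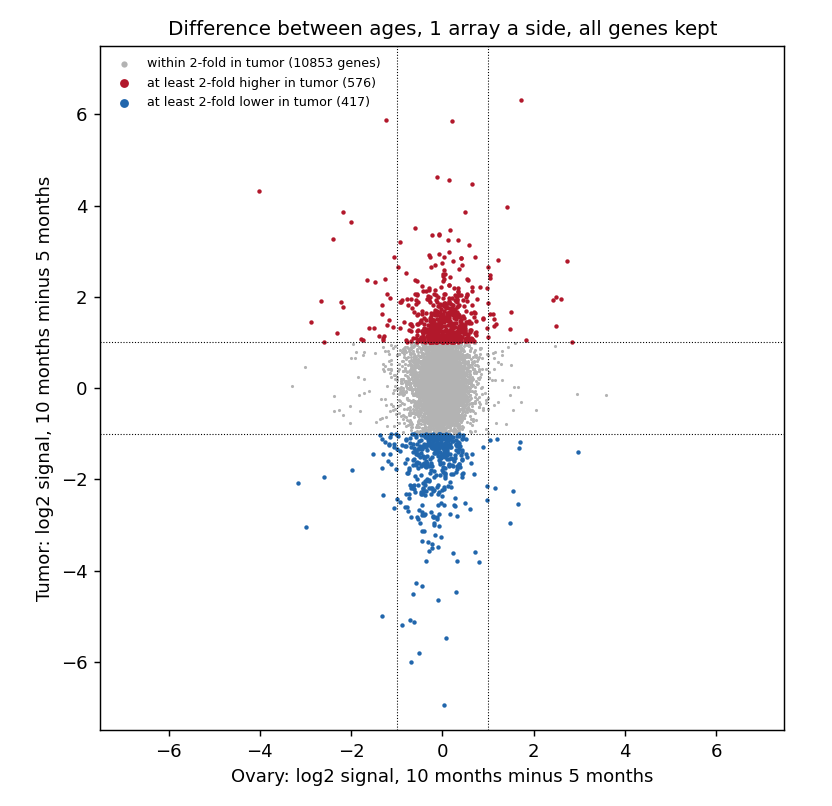
Each of 11846 genes is plotted by its log2 difference between 10 and 5 months in the ovary pools (x axis) and in the tumor pools (y axis), 1 array a side, with dotted lines at 2-fold. The cloud is taller than it is wide: 576 genes in red are 2-fold or more above 0 in the tumors and 417 in blue 2-fold or more below it, and the genes at the far ends include many with a signal under the array's median on one side.

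Several measures of array quality moved with the comparison. For the control transcripts, the 3′ signal over the 5′ signal was 1.13 for Gapdh and 2.52 for actin in the 5-month tumors and 1.41 and 2.96 in the 10-month tumors, while in the ovaries it stayed within 1.09 to 1.11 and at 2.33. Their part in the results was not tested. By its brightest probe set, no gene of the housekeeping list was past 2-fold among 16, with differences from -0.26 to 0.34. Another probe set of Pgk1 in that list was at -1.48. The 30 genes of the respiratory chain lay between -0.41 and 0.34. Genes on the Y chromosome, absent in females and measured by 13 probe sets for 6 genes, reached at most 10.8 and 10.4 on the tumor arrays, below the array medians of 34.6 and 37.5. A signal under the median was therefore read only as a bound: a gene with one of both tumor signals in that range has its fold stated as a lower bound, reckoned to the median of that array. Such genes made up 237 of the genes called higher and 223 of those called lower, and with all signals under the median set to it 410 genes (3.46%) were higher and 266 (2.25%) lower. Of 134 higher genes with several probe sets kept, all probe sets pointed the same way for 129, and the same held for 96 of 100 lower genes. All probe sets reached 2-fold for 80 of the 134 and 55 of the 100. The folds below are those of the brightest kept probe set.

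The 15 genes with the largest increase on that bounded scale were Upk1b, Rhox5, Bpifb5, Lcn2, Kcnf1, Lrrn4, Pcnx2, Lgals7, Serpina1b, Lgr5, Wt1os, Plppr4, Muc16, Gng13 and E330013P04Rik. Upk1b, a uroplakin of urothelium and mesothelium, had signals of 204, 193, 223 and 2297 in the 5-month ovaries, 10-month ovaries, 5-month tumors and 10-month tumors, the order kept for every set of 4 signals below. Only the last of these stood apart, at 10.3-fold the 5-month tumor value. The 4 probe sets of Upk1b ranged from 1.36 to 3.36 on the log2 scale. Rhox5, a homeobox gene of Sertoli cells and of many tumors, had signals of 16.5, 14.1, 54.9 and 564 and was 10.3-fold higher. Lcn2, an iron-siderophore binding protein of epithelia and neutrophils, had signals of 433, 648, 273 and 2396 and was 8.77-fold higher. Both ovary values of Lcn2 lay between those of the tumor pools. Lgals7, a galectin of stratified epithelia, had signals of 175, 349, 332 and 2104. Wt1os, the transcript antisense to Wt1, had signals of 31.3, 25.9, 28.0 and 205 and was at least 5.90-fold higher. Strand was not considered in naming probe sets, and Wt1 itself was 2.71-fold higher.

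The 15 genes with the largest decrease were Asb4, Elobl, Ereg, Obox2, Oosp1, Nlrp14, Ufsp1, E330021D16Rik, Padi6, Neb, Bcl2l10, Elovl2, C86187, E330034G19Rik and Pappa. Obox2, Oosp1, Nlrp14, Padi6 and Bcl2l10 are known from oocytes. Asb4, a substrate receptor of a ubiquitin ligase, had signals of 94.5, 77.1, 506 and 42.9 and was 11.8-fold lower in the 10-month tumors. Ereg, the epidermal growth factor family member epiregulin that luteinizing hormone induces in granulosa cells, had signals of 22.9, 21.3, 388 and 34.5 and was at least 10.3-fold lower. For Asb4, Ereg, Ufsp1, Neb and Elovl2 the 5-month tumor pool was the only high array of the 4. For the oocyte genes, by contrast, both ovary pools and the 5-month tumor pool were high and the 10-month tumor pool alone was low. Pappa, a protease that frees insulin-like growth factors from their binding proteins, had signals of 176, 213, 253 and 42.3.

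**Figure D2:**
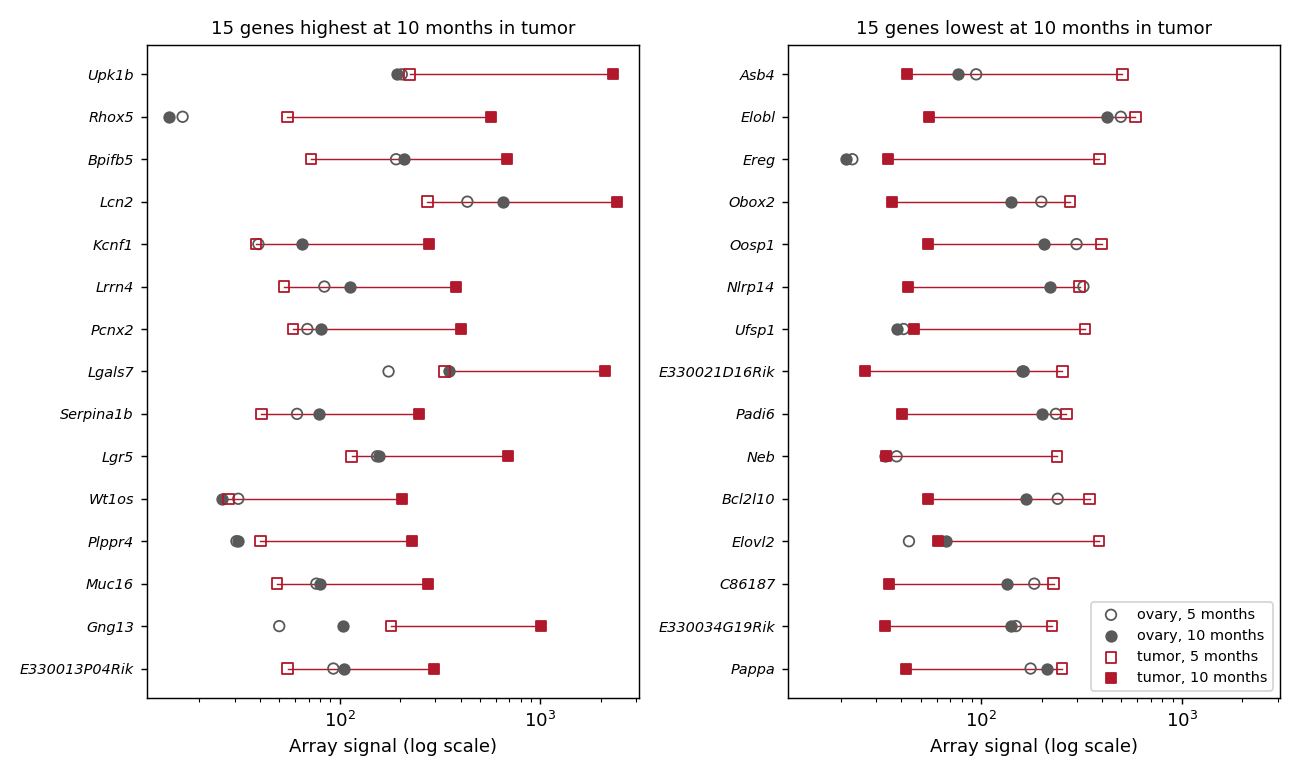
Signals on all 4 arrays (log axis) of the 15 genes highest and the 15 lowest in the 10-month against the 5-month tumor pool, ranked on the bounded scale; red lines join the tumor pools. In the left panel the 10-month tumor signal exceeds the other 3 signals of each gene, and in the right panel the 5-month tumor signal is the highest of the 4 for all genes but Nlrp14.

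Against the ovary of the same age, the genes called higher or lower in tumors of 10 months took different courses. Of the 576 higher genes, 149 were at least 2-fold below the ovary in the 5-month comparison and 11 in the 10-month comparison, while the number at least 2-fold above the ovary was 45 at 5 and 316 at 10 months. Of the 417 lower genes, 92 were at least 2-fold above the ovary at 5 months and 20 at 10 months, and those at least 2-fold below it numbered 41 and 220. These counts share the tumor arrays that chose the genes, and they are a description of where the genes stood. The same counts were not taken over all genes kept, so they have no background to be set against.

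The markers of mesothelium and ovarian surface epithelium were the list with the highest median. All 16 measured members, of 17 with a probe set, had a higher signal in the 10-month tumors, 13 of them at least 2-fold, with a median of 2.01 against 0.01 over all genes and 0.10 for the same members in the ovaries. The member not kept was Calb2, which encodes calretinin and was above the median on neither tumor array. By immunostaining, the study found calretinin in the surface epithelium of ERα f/f but not of ERα d/d ovaries. It also reported PAX8, WT1 and Ber-EP4 staining raised in ERα d/d ovaries and lacking in ERα f/f ovaries. That is protein in tissue sections, whereas Wt1 RNA had signals of 459 and 471 in the whole ovary pools. The measured members not past 2-fold were Bnc2, Msln and Nkain4. Lrrn4, a leucine-rich repeat protein of mesothelium, had signals of 84.0, 112, 52.7 and 380 and was 7.21-fold higher. Lgr5, the R-spondin receptor that marks stem-like cells of the ovarian surface, had signals of 154, 158, 115 and 686 and was 5.98-fold higher. In both genes the 10-month tumor pool lay above the other 3 arrays, and the 5-month tumor pool lay below them. Muc16, the mucin that carries the CA125 epitope, had signals of 76.6, 79.5, 48.7 and 275 and was 5.65-fold higher. Rspo1, a secreted activator of WNT signaling, had signals of 158, 161, 89.8 and 472. Aldh1a2, which makes retinoic acid, had signals of 310, 380, 425 and 1733. Wt1, a transcription factor of the surface epithelium and of granulosa cells, had signals of 459, 471, 408 and 1106. Msln, mesothelin, had signals of 82.2, 95.9, 94.9 and 129 and a difference of 0.44. The medians of tumor minus ovary over the list were -0.04 at 5 months and 1.78 at 10 months, and 8 and 16 of the 16 members lay above the ovary of the same age.

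Of 24 measured epithelial genes, 11 were higher and 3 were lower, with a median of 0.94 against 0.10 in the ovaries. On the bounded scale 9 were higher and 1, Prom1, was lower, with a median of 0.86. The keratins, which form the intermediate filaments of simple epithelia, were among the higher ones: Krt7 was 4.62-fold, Krt18 3.76-fold, Krt19 3.72-fold and Krt8 3.38-fold higher. Krt8 had signals of 978, 1137, 414 and 1400, so that the 5-month tumors lay below both ovaries and the 10-month tumors above them. The adhesion protein Epcam had signals of 594, 723, 251 and 634, and E-cadherin, Cdh1, had signals of 742, 744, 212 and 450. Both adhesion genes were lowest in the 5-month tumors, and the 10-month tumors lay below the 10-month ovaries. Prom1, a membrane protein of progenitor cells and epithelia, had signals of 310, 309, 143 and 30.3 and was at least 3.82-fold lower. Fxyd3, a regulator of the sodium pump, had signals of 611, 769, 65.6 and 19.1, and Esrp1, a splicing factor of epithelia, had signals of 182, 195, 65.6 and 24.6. Their 10-month signals were under the array's median, and both were lower by at least 1.75-fold. The tumor values of Prom1, Fxyd3 and Esrp1 were below the ovary values at both ages. The 5-month tumors exceeded the 5-month ovaries for 1 of 24 members and the 10-month tumors exceeded the 10-month ovaries for 10. Krt19 belongs to both this list and that of the surface epithelium.

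The list of the oviduct, whose lining holds secretory and ciliated cells, was below the ovary pools in the tumors of both ages for all of its 14 measured members. Ovgp1, the glycoprotein secreted by oviduct cells, had signals of 11597, 11819, 4108 and 917 and was 4.48-fold lower at 10 months. Foxj1, the transcription factor for motile cilia, had signals of 163, 158, 32.2 and 81.0 and was at least 2.34-fold higher at 10 months. The 14 were measured of 22 with a probe set, and 4 of them were under the median on the 5-month tumor array. Their median was 0.83 (0.53 on the bounded scale) against -0.21 in the ovaries. In all, 6 members were higher (4 on the bounded scale) and 1, Ovgp1, was lower. The other members were within 2-fold, from -0.56 for Mlf1 to 0.93 for Enkur. How much oviduct each pool contained was not tested.

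**Figure D3:**
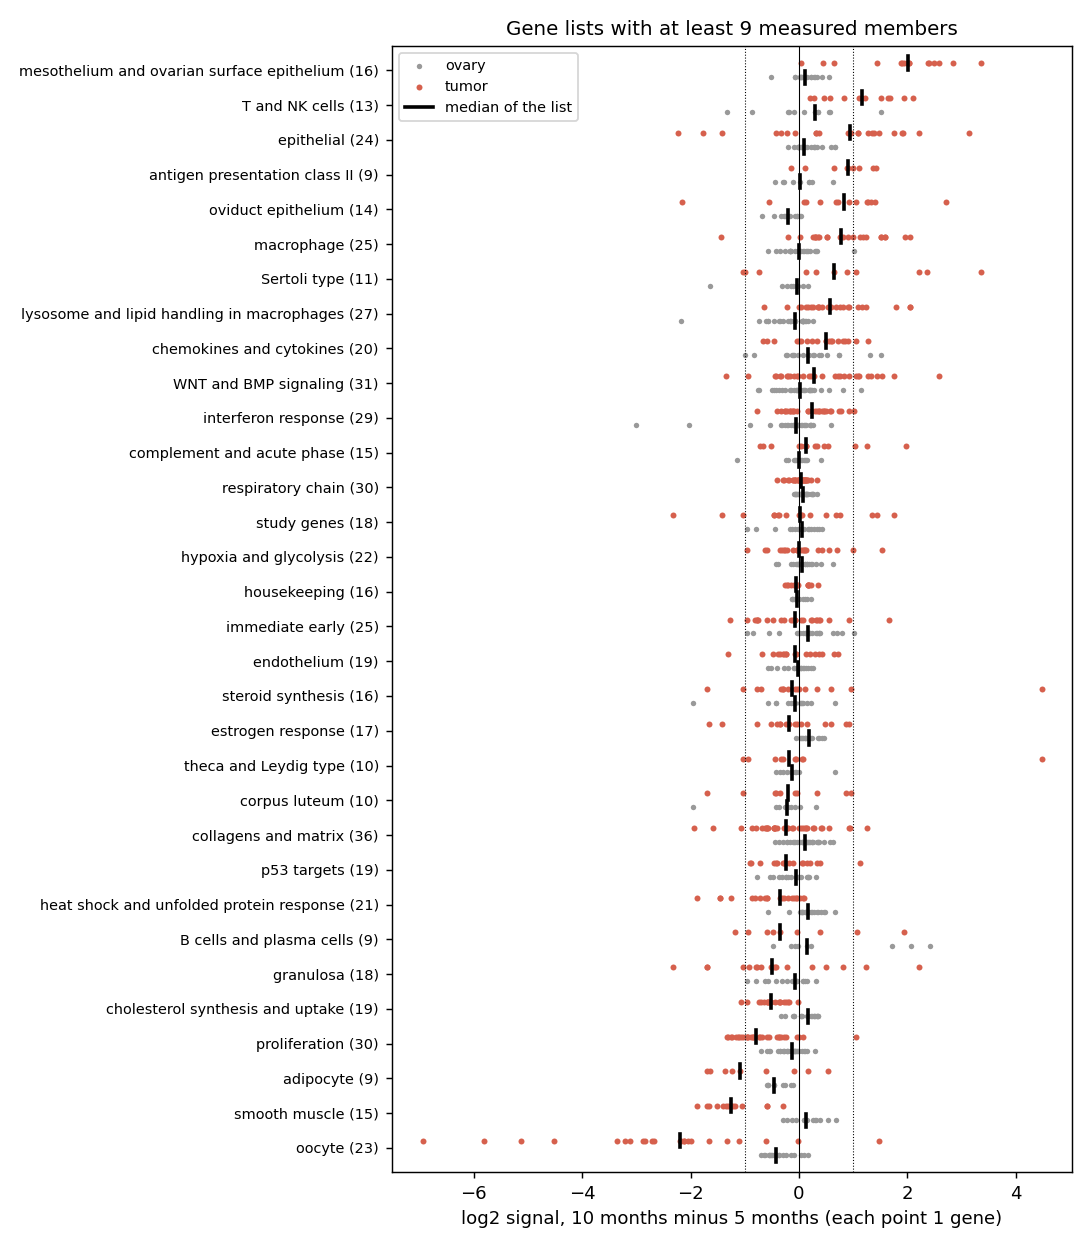
Log2 differences between 10 and 5 months of the measured members of each list with at least 9 of them (count in brackets), in tumors (red) and ovaries (grey), with the median of each list as a black bar and dotted lines at 2-fold. The surface epithelium list (median 2.01) and the oocyte list (median -2.20) lie at the ends in the tumors, while no ovary median is beyond -0.45 to 0.29.

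Oocyte genes were lower in the 10-month tumors. Of 23 measured members, of 27 with a probe set, 20 were lower, with a median of -2.20 against -0.42 in the ovaries, where none was past 2-fold. Many of these genes are dim: 11 had a 10-month tumor signal under the array's median, and with signals under the median set to it 12 were lower and the median was -1.02. Oosp1, a protein secreted by oocytes, had signals of 299, 206, 398 and 54.4 and was 7.31-fold lower. Nlrp14, needed in the early embryo, had signals of 323, 221, 309 and 43.5 and was 7.12-fold lower. In both genes the 10-month tumors lay below the other 3 arrays, and the 5-month tumors were near or above the 5-month ovaries. Padi6, part of the oocyte's cytoplasmic lattices, had signals of 236, 200, 266 and 40.5. Gdf9, the growth factor by which the oocyte acts on granulosa cells, had signals of 289, 234, 287 and 63.3 and was 4.53-fold lower. Zp3, a protein of the zona pellucida, had signals of 180, 140, 220 and 53.4 and was 4.13-fold lower. Tle6 (0.61 lower on the log2 scale) and Ooep were within 2-fold, and Ooep had signals of 394, 422, 506 and 499. Kit, the receptor by which oocytes answer to Kitl and which mast cells and other cells also carry, was the member that was higher, with signals of 315, 229, 199 and 558. The medians of tumor minus ovary were 0.01 at 5 months and -1.77 at 10 months.

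The promoters of oocyte genes are known for the E-box to which the factor FIGLA binds with its partner. In the 250 bases before the start of transcription (RefSeq, GRCm38.p6), the E-box letters CACGTG or CAGGTG, on either strand, were found for 10 of the 16 oocyte genes with a listed promoter, against 24.7% of all 27025 genes and 22.2% of all 32851 promoters. The windows of Oosp1 and Padi6, chosen as those of the 4 leading oocyte genes that had a listed promoter, are shown with the matches in capitals. They lie at chr19:11691052-11691301 and chr4:140742644-140742893, both on the minus strand.
Oosp1: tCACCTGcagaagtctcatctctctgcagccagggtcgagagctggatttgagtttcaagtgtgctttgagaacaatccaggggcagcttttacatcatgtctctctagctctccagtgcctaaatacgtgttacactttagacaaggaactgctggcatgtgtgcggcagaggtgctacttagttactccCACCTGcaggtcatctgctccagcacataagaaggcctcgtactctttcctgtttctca
Padi6: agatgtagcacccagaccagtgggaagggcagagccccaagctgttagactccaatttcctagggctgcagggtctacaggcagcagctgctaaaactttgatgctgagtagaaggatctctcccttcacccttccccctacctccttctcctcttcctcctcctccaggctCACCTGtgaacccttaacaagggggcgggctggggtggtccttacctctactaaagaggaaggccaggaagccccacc
The match nearest the start lay 54 bases before it in Oosp1 and 73 bases before it in Padi6. These letters are a description of the windows and carry no statement on FIGLA in the tumors.

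Granulosa markers checked the tissue. Foxl2, the factor that keeps granulosa identity, had signals of 1429, 1579, 1714 and 2017, and Inha, the inhibin subunit, had signals of 8378, 7198, 10147 and 7506. Both were at ovary levels in both tumor pools. Of 18 measured members, 2 were higher and 4 lower, with a median of -0.50 against -0.07 in the ovaries. Fshr, the receptor for follicle-stimulating hormone, had signals of 74.9, 50.5, 127 and 39.6 and was 3.22-fold lower at 10 months. Amh, made by granulosa cells of growing follicles, had signals of 120, 69.2, 75.1 and 15.02, and reached the 2-fold line on the bounded scale. Esr2, which encodes ERβ, had signals of 93.7, 48.0, 96.1 and 46.7, and so was lower at 10 months in ovaries (-0.96) and tumors (-1.04) alike. Inhbb, an inhibin and activin subunit, had signals of 2941, 3101, 871 and 2065 and was 2.37-fold higher, while its other probe set differed by 0.38. Nr0b1, a repressor of steroidogenic genes, had signals of 64.9, 63.7, 101 and 467 and was 4.62-fold higher.

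Genes of Sertoli cells, the testis counterpart of granulosa cells, included Rhox5, Sox9 and Nr0b1, which is also counted in the granulosa list. Of 11 measured members 4 were higher and 2, Cldn11 and Mro, were lower. The tumors exceeded the ovary of the same age for 8 members at 5 months and for 10 at 10 months. Sox9, the factor that sets Sertoli identity and that other epithelia also use, had signals of 87.6, 85.0, 44.1 and 91.5, so that the 10-month tumors were at the ovary level. Ptgds, a prostaglandin D synthase, had signals of 561, 180, 621 and 3208 and went the opposite way in the ovaries.

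Steroid synthesis genes differed little. Of 16 measured members, 1 was higher (6.25%, against 4.86% of all genes) and 2 were lower (12.5%, against 3.52%). The median was -0.13 against -0.07 in the ovaries. Star, which brings cholesterol into mitochondria, had signals of 2836, 2112, 1877 and 921 and was 2.04-fold lower at 10 months. Akr1c18, which inactivates progesterone in the corpus luteum, had signals of 2425, 625, 537 and 1045, a 3.88-fold lower value in the older ovaries and a 1.95-fold higher one in the older tumors. The higher member was Hsd17b3, a dim gene with no 2-fold difference once signals under the median were set to it. Genes of cholesterol synthesis and uptake, which feed this pathway, had a lower signal for all 19 members in the 10-month tumors, but only Fdps, with signals of 1342, 1237, 852 and 406, passed 2-fold. Their median was -0.51 against 0.16 in the ovaries, and Cyp51, Pmvk and Msmo1 followed Fdps at -0.96, -0.73 and -0.70. Corpus luteum genes had a median of -0.21, with Ptgfr, the prostaglandin F receptor, 3.24-fold lower, and those of theca and Leydig cells one of -0.19.

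Smooth muscle genes were lower. All 15 measured members had a lower signal in the 10-month tumors, 12 of them at least 2-fold (10 on the bounded scale), with a median of -1.25 against 0.14 in the ovaries. Actg2, an actin of visceral smooth muscle, had signals of 1810, 2924, 628 and 171 and was 3.67-fold lower. Myh11, the smooth muscle myosin, had signals of 2538, 2795, 1347 and 418 and was 3.22-fold lower, while its other probe set was at -0.54. Both were lower in the tumors than in the ovaries at 5 months and lower still at 10 months. Myocd, the coactivator that switches on the contractile genes, had signals of 157, 152, 208 and 65.6 and was 3.18-fold lower, and here the 5-month tumors were above the ovaries. Acta2, which myofibroblasts also use, had signals of 8493, 9028, 6578 and 2894. Des, Smtn and Synm were within 2-fold. The summed signal of the list was 34270, 39706, 20766 and 8957. Among 36 collagen and matrix genes, by comparison, 1 was higher and 3 lower, with Fbln2 3.82-fold and Postn 3.01-fold lower and a median of -0.25. The adipocyte list had 5 of 9 members lower (4 on the bounded scale). Its median was -1.08 against -0.45 in the ovaries, where every member was also lower but none past 2-fold. Among the members lower in the tumors was Adipoq, the hormone adiponectin, with signals of 1092, 736, 503 and 162. The probe sets of Scd1 in that list disagreed, at -1.08 and 0.06. Endothelial genes were at -0.08 in the median with 1 of 19 lower (5.26%, against 3.52% of all genes). That member was Lyve1 of lymphatic vessels, which was 2.47-fold lower.

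Macrophage genes were higher in the 10-month tumors, and 22 of the 25 measured members exceeded the ovary of the same age both at 5 and at 10 months. Between the ages 10 members were higher and 1 was lower, with a median of 0.77 against 0.00 in the ovaries. Clec7a, the receptor Dectin-1 for fungal glucans, had signals of 196, 132, 380 and 1571 and was 4.14-fold higher. Trem2, a lipid-sensing receptor, had signals of 62.3, 49.2, 102 and 395 and was 3.86-fold higher. For both genes the order from ovary over 5-month to 10-month tumor was the same. Cd68, a glycoprotein of macrophage lysosomes, had signals of 167, 150, 414 and 1249, and Tyrobp, the adaptor through which Trem2 signals, had signals of 441, 440, 788 and 2261. The 14 members within 2-fold included Adgre1, which encodes F4/80, with signals of 148, 131, 168 and 205, and the growth factor receptor Csf1r, which differed by 0.35. Cd163, a scavenger receptor, was the member that was lower, with a 10-month signal under the array's median and no fold on the bounded scale. The medians of tumor minus ovary were 0.88 at 5 and 1.53 at 10 months.

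The genes of lysosome and lipid handling that macrophages use had 6 of 27 members higher and none lower, with a median of 0.58 against -0.08 in the ovaries. Gpnmb, a glycoprotein of lipid-laden macrophages, had signals of 231, 152, 973 and 4043 and was 4.16-fold higher. Atp6v0d2, a proton pump subunit of macrophages and osteoclasts, had signals of 87.5, 59.3, 199 and 826 and was 4.15-fold higher. Both exceeded the ovaries in both tumor pools. Fabp5, a fatty acid carrier, was 2.25-fold higher, Acp5, the tartrate-resistant phosphatase, 2.36-fold higher and Abcg1, a cholesterol exporter, 2.14-fold higher. Mmp12, the elastase of macrophages in the matrix list, was 2.40-fold higher.

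Other immune lists were smaller or dimmer. Class II antigen presentation had 4 of 9 members higher and a median of 0.91, with Cd74, the invariant chain, at 730, 674, 522 and 1345. The T and NK cell list had 8 of 13 members higher and a median of 1.16, against 0.29 in the ovaries. However, 7 members were under the median of the 5-month tumor array. With signals under the median set to it, 2 members, Il7r and Ccl5, were higher and the median was 0.57, against -0.08 in the ovaries. Il7r, the interleukin-7 receptor, had signals of 40.4, 51.4, 62.0 and 268, and Ccl5, a chemokine of T cells, had signals of 50.7, 61.9, 71.3 and 272. Both rested on the 10-month tumor array alone, and Cd3g, a part of the T cell receptor complex, was at 25.4, 37.4, 26.1 and 58.2. Interferon-induced genes had 1 of 29 members higher, 3.45% against 4.86% of all genes. That was Gbp2, a guanylate-binding protein, at 2.01-fold, and the median was 0.24 against -0.05 in the ovaries. Complement and acute-phase genes had 3 of 15 higher, among them Saa3, a serum amyloid, and a median of 0.13 against 0.00 in the ovaries. Chemokines and cytokines had 2 of 20 higher, the receptor chain Csf2rb and Il33, and 2 were higher in the ovaries as well. The median of that list was 0.50 against 0.17 in the ovaries. The B cell and plasma cell list had 2 members higher and 1 lower of 9. Ighm, the heavy chain of immunoglobulin M, had signals of 301, 1614, 74.0 and 284, with a larger difference between the ovaries (2.42) than between the tumors (1.94), and its 4 probe sets ranged from 0.13 to 1.94 in the tumors.

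Proliferation genes were lower. Of 30 measured members, 27 had a lower signal in the 10-month tumors and 9 were past 2-fold (7 on the bounded scale), with a median of -0.79 against -0.13 in the ovaries. Mcm2, part of the replicative helicase, was the member that was higher, at 1.05, and another of its probe sets disagreed. Bub1, a kinase of the spindle checkpoint, had signals of 137, 130, 150 and 60.3 and was 2.48-fold lower. Ccnb2, a mitotic cyclin, had signals of 171, 147, 195 and 83.0 and was 2.35-fold lower. The 5-month tumors were at or just above the ovaries in both genes. Kif11, a motor that separates the spindle poles, was 2.19-fold lower and Birc5, survivin, 2.15-fold lower. Mki67, the gene of the Ki-67 antigen, had signals of 387, 381, 454 and 252 and a difference of -0.85. Pcna, the clamp of DNA polymerase, had signals of 1684, 1753, 1262 and 1264, a difference of 0.00, and the helicase genes Mcm3 and Mcm7 were at -0.23 and -0.04. Genes of mitosis and of entry into it made up the lower members past 2-fold, together with Cdc6, a replication licensing gene that was dim. The medians of tumor minus ovary were 0.08 at 5 months and -0.50 at 10 months.

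Promoters of mitotic genes are known to carry CCAAT boxes, bound by the factor NF-Y, and a cell cycle homology region (CHR), bound by repressor and activator complexes. In the 250 bases before the start, the letters CCAAT, on either strand, were found for 19 of the 24 proliferation genes with a listed promoter, against 37.5% of all genes, and the CHR letters TTTGAA or TTTAAA for 14 of 24, against 28.1%. Over all promoters these shares were 33.9% and 25.2%. The windows of the 3 genes among the 4 leading proliferation genes that hold a CCAAT box are shown, with matches to either motif in capitals: Bub1 at chr2:127831860-127832109 on the minus strand, Ccnb2 at chr9:70421555-70421804 on the minus strand and Kif11 at chr19:37376132-37376381 on the plus strand.
Bub1: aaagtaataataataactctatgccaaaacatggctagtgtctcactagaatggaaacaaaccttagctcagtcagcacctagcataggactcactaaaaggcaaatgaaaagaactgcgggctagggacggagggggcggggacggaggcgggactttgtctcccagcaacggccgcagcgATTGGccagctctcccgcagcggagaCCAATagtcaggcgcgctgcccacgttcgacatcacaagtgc
Ccnb2: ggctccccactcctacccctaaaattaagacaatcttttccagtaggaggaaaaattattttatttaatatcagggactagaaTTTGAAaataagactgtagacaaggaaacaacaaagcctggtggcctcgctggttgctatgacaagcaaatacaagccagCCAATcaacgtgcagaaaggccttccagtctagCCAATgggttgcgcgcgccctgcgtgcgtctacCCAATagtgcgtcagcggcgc
Kif11: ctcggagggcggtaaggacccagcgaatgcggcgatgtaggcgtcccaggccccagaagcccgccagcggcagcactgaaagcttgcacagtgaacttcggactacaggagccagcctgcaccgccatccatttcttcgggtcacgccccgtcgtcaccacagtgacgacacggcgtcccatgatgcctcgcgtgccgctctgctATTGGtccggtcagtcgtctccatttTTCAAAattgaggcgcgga
Ccnb2 held 3 CCAAT boxes, 83, 50 and 17 bases before the start, Bub1 held 2 and Kif11 held 1. The CHR letters were found in Ccnb2, 162 bases before the start, and in Kif11, 14 bases before it, and not in Bub1. Birc5, the leading gene not shown, held the CHR letters 215 bases before the start. Among the proliferation genes the median difference in the tumors was -0.72 with and -1.03 without a CCAAT box. It was -0.73 with and -0.66 without the CHR letters. The same search covered 5 further motifs: the CArG box for smooth muscle genes (1 of 11, against 1.62% of all genes), AGAGGAAG or GAGGAAGT for macrophage genes (5 of 19, 6.05%), TAATTA or TAATTG for oocyte genes (3 of 16, 12.9%), the GATA motif for surface epithelium genes (3 of 10, 29.8%) and TCACCCCAC for cholesterol genes (1 of 15, 0.555%).

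Stress genes included a group that was lower. Of 21 members of the heat shock and unfolded protein list, 4 were lower (3 on the bounded scale) and none was higher, with a median of -0.35 against 0.17 in the ovaries. Asns, asparagine synthetase, had signals of 207, 273, 411 and 149 and was 2.76-fold lower, while its other probe set was at -0.77. Trib3, a pseudokinase, had signals of 36.4, 24.5, 104 and 38.1 and was 2.73-fold lower. Chac1, which degrades glutathione, was lower by at least 1.62-fold, its 10-month signal being under the array's median. All of them are known targets of the amino acid response, as is Ddit3, which was 2.38-fold lower by its brightest probe set while another differed by 0.62 in the other direction. The other 17 members, the heat shock proteins among them, stayed within 2-fold. The p53 target list had 1 of 19 members higher (5.26%, against 4.86% of all genes) and a median of -0.25. That member, Pmaip1, was under the median at 5 months and fell short of 2-fold on the bounded scale. The cell cycle inhibitor Cdkn1a was at 202, 201, 716 and 389. The hypoxia list had 1 of 22 higher (4.55%, against 4.86% of all genes) and a median of 0.00. That member was Car9, a carbonic anhydrase with signals of 47.1, 35.9, 31.7 and 92.1. Among immediate early genes, the transcription factor Atf3 was 3.18-fold higher and Egr3, under the array's median at 10 months, was lower by at least 1.83-fold, with a median of -0.08 over 25.

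WNT and BMP genes held 9 higher members of 31 (8 on the bounded scale) and 1 lower, with a median of 0.27 against 0.02 in the ovaries. Among the ligands, Wnt4, which the embryonic ovary needs, had signals of 1153, 1337, 404 and 1357 and was 3.36-fold higher, and Wnt6 had signals of 128, 170, 172 and 464 and was 2.70-fold higher. Wnt4 in the 10-month tumors was at the ovary level, and Wnt6 was above it. Among receptors and targets, Lgr5 led the list, Fzd1 was 2.08-fold higher, and the feedback inhibitors Axin2 and Nkd2, which the pathway itself induces, were 2.14-fold and 2.50-fold higher. Axin2 had signals of 154, 153, 114 and 244. The higher members also included the ligands Wnt9a and Bmp7 and the secreted BMP inhibitor Grem1. Bmp7 differed by 1.52 on the log2 scale in the tumors and was past 2-fold higher in the ovaries as well. Grem1 differed by 1.28 in the tumors. Chrdl1, another secreted BMP inhibitor, went the other way and was 2.54-fold lower. The ligand Wnt5a and the inhibitors Sfrp1, Sfrp4 and Dkk3 were within 2-fold.

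The genes that the study named, in part from these samples, were varied. Of 18 measured, 3 were higher (Krt8, Wt1 and Epcam) and 3 lower (Amh, Pgr and Esr2), with a median of 0.02. Pgr, under the array's median at 10 months, was lower by at least 1.54-fold and is no longer counted on the bounded scale. The adhesion gene Vcam1 had signals of 200, 257, 2174 and 1836, and Pdgfra, a growth factor receptor of stroma, had signals of 992, 1062, 1900 and 2682. Both stood above the ovaries in both tumor pools and differed by less than 2-fold between them. Vim, the filament of mesenchymal cells, Pcna, Esr1, Icam1, Clu, Akt1, Ppm1d, Rb1, Brca1 and Brca2 were also within 2-fold, at -0.46 to 0.75. Of the estrogen response list, 2 of 17 members were lower, Pgr and Ltf, the iron-binding lactoferrin with signals of 882, 1129, 156 and 49.5, and none was higher. On the bounded scale Ltf alone was counted.

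**Figure D4:**
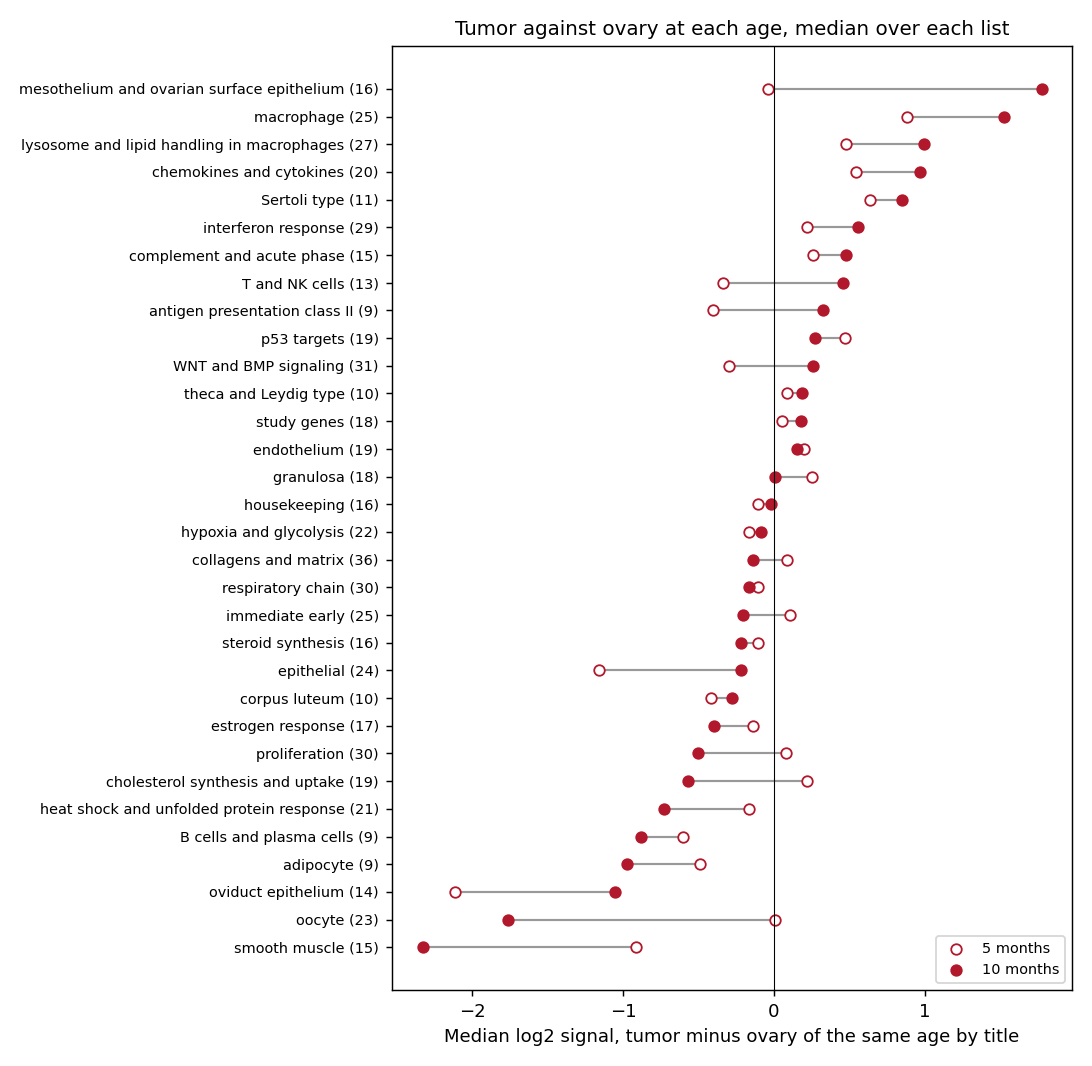
Median over each list of the log2 difference between tumor and ovary of the same age by title, at 5 months (open) and 10 months (filled), for lists with at least 9 measured members. The surface epithelium list moves from -0.04 to 1.78, the oocyte list from 0.01 to -1.77 and the smooth muscle list from -0.91 to -2.33, while the housekeeping list stays at -0.11 and -0.02.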

How the data were processed

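RNA of whole ovaries or tumors was labelled with a 3′ kit and hybridised to Affymetrix arrays. Per the labels, the authors processed the arrays with MAS5 in Affymetrix Expression Console 1.1, and the deposited values are linear signal intensity, 1 per probe set, with a trimmed mean of 150.0 on each of 4 arrays. No detection call was used here. Of 45101 probe sets, 34945 named 1 gene in GEO's platform annotation. Of these, 34741 were matched by gene ID to a RefSeq gene, whose symbol was used. From the intensities, log2 was taken without a pseudocount, a gene was read from its brightest kept probe set, and differences were computed in Python 3.11.15 with pandas and checked on simulated data. Genes were named if among the 15 highest or 15 lowest with signals under the array's median set to it, among the 4 largest of a list by size, or in the list of study genes, and members needed to describe a list were added. The members and the 36 lists were chosen with earlier results of these data known. No test was made. Just inside the filter was Tbx1 (34.6 and 34.3 in the 5- and 10-month tumors) and just outside Txndc2 (25.9 and 37.5). Alternatives changed the normalization, the pseudocount, the filter, the choice of probe set and the fold threshold.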

Additional observations from a re-analysis of the deposited data

Results flagged for a closer look

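With signals under an array's median raised to it, 3 of the named genes differed 2-fold or more between ages in opposite directions in tumors and ovaries, each from 1 array a side, and the difference between the tissues was not tested. Ptgds differed by 2.37 on the log2 scale in the tumors and by -1.64 in the ovaries. Saa3 differed by 1.98 in the tumors and by -1.15 in the ovaries. Igha, the heavy chain of immunoglobulin A, differed by -1.18 in the tumors and by 1.71 in the ovaries. Without that bound Mcoln3 (1.78 in the tumors and -2.19 in the ovaries) and S100a9 (1.08 and -1.78) did so too, and both ovary signals of each were under the array's median.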

How the results depend on the processing

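The counts of genes past 2-fold, 576 higher and 417 lower, depended on the filter and on dim genes. They were 256 and 215 with a pseudocount of 32, 1894 and 1804 with no filter, 339 and 195 over genes above the median on both tumor arrays, 244 and 169 above the 75th percentile on at least 1, and 266 lower once a signal below the median was raised to it. They were 1282 and 962 past 1.5-fold, 202 and 186 past 3-fold and 90 and 116 past 4-fold. Standard deviations were 1.09 in tumors and 0.98 in ovaries with no filter, and the ovary value was 0.21 both with the pseudocount and above the 75th percentile. The oocyte median was -1.44 with the pseudocount and -1.02 with dim signals raised to the median. That of T and NK cells was 0.64 and 0.57 under these, 0.62 with no filter, 0.52 above the median on both arrays, 2.02 above the 75th percentile and 0.76 after taking off the ovary difference. The neutrophil median, over 6 genes, was 0.39 with the pseudocount, with no filter, above the median on both arrays and without probe sets of the _s_at and _x_at kinds, 3.13 above the 75th percentile and 0.058 less the ovary difference. The epithelial median was 0.45 with no filter and 1.55 above the 75th percentile, and the Sertoli median was 1.55 there. Adipocytes were at -0.62 with the mean of probe sets, B cells at -0.035 without the _s_at and _x_at kinds, and less the ovary difference mast cells were at -0.18 and chemokines at 0.078. The direction turned for erythrocytes (1 gene, -0.29 with no filter), mast cells (0.56 above the 75th percentile) and, less the ovary difference, Ighm (-0.48) and S100a8 (-0.49). The other 326 of 349 recomputed list medians moved by less than the standard deviation between the ovary arrays, under quantile normalization and equal 75th percentiles as well. No array could be left out, since that leaves an age without data, and the number of arrays limits the precision.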

Other observations

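Of 5 mast cell genes, 4 had a lower signal in the 10-month tumors and 1, Kit, a higher one, and of the lower ones Cpa3 alone was past 2-fold. Cpa3, a mast cell protease, had signals of 78.2, 53.5, 121 and 51.8 in the 5- and 10-month ovaries and the 5- and 10-month tumors. Of 6 neutrophil genes 3 were higher and 2 lower (2 and 1 on the bounded scale). The lower ones were Ltf (-1.65) and Camp (-1.30). Among the higher ones S100a8 had signals of 4.39, 24.5, 24.9 and 98.9, of which only the last lay above its array's median. Outside the named genes, 3614 probe sets that do not name exactly 1 gene passed the signal filter, with 180 of them higher and 93 lower by 2-fold or more in the 10-month tumors.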
